A study of Homo sapiens with 12 samples.

Results

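The BCL2 family of cell death genes was examined in RNA-seq data of LNCaP cells depleted of BRG1. The members are 9 genes of this family listed by symbol, of 63568 genes in the table. They fall into 3 classes by function. The anti-apoptotic members were BCL2, BCL2L1 (BCL-XL) and MCL1, the effectors were BAX and BAK1, and the BH3-only members were PMAIP1 (NOXA), BCL2L11 (BIM), BIK and BID. Of the 9 members, 8 had a level of 1 TPM or more (transcripts, scaled to gene length, as parts of a fixed total per library) in at least 2 libraries and were tested, and BCL2 did not.

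LNCaP is an androgen-sensitive prostate cancer cell line that grew out of a lymph node metastasis, and BRG1, encoded by SMARCA4, is an ATPase of the SWI/SNF chromatin remodelling complex. Every cell sequenced was a LNCaP cell transfected with siRNA, the controls with a non-targeting siRNA pool (si-NT) and the BRG1 depleted cells with either of 2 siRNAs against SMARCA4. RNA was taken at 72 h, or at 144 h after the cells had been split and transfected again at 72 h. Each siRNA and time point had 2 libraries, which gave 2 si-NT and 4 BRG1 depleted libraries per time point and 12 in all. The siRNAs carry the numbers 2 and 3 in the table and are called by them here. Sample labels number them 1 and 2 instead, with contradictory numbers on 1 library of 72 h, so results given per siRNA rest on the table's column names. The model is a single cell line in which depletion was partial and transient. Nothing states whether the duplicates came from separate cultures, so all p-values measure the spread between these libraries, which may be technical.

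Proteins of the BCL2 family decide whether the outer mitochondrial membrane is opened during apoptosis. BAX and BAK1 form the pores through which cytochrome c escapes to start the caspases, and BCL2, BCL-XL and MCL1 bind and hold them back. BH3-only proteins respond to stress by occupying the anti-apoptotic members or by activating the effectors directly. Much of this control lies in protein binding and stability, which mRNA levels do not show. In bulk RNA, a lower level per cell and fewer cells that express a gene cannot be told apart.

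Depletion was seen first in SMARCA4 itself, whose mean fell from 85.2 to 19.3 TPM at 72 h and from 101 to 15.2 TPM at 144 h. The log2 fold changes on the TPM + 1 scale were -2.07 and -2.66 (limma adjusted p = 0.000538 and 1.01e-05). All 8 prostate luminal markers examined were expressed, with sums between 1805 and 2695 TPM over the libraries. Of the markers of other cells, 4 of 4 basal genes and 5 of 5 blood and endothelial genes stayed under 1 TPM in every library, as did 5 of 6 fibroblast genes. Spike-in RNA (ERCC) took 0.805% to 1.966% of TPM. TPM keeps no read depth, so counting error is unknown and the error of each value was judged from replicate libraries.

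The members lie apart in the genome, and their levels span a wide range. On GRCh37, BCL2L1 is a protein-coding gene on the minus strand at chr20:30252255-30311792, MCL1 on the minus strand at chr1:150533371-150552214 and BCL2 on the minus strand at chr18:60790579-60987361. BAX is on the plus strand at chr19:49458072-49465055 and BAK1 on the minus strand at chr6:33540324-33548070. The BH3-only genes are PMAIP1 at chr18:57567228-57571537 and BCL2L11 at chr2:111876955-111926021, both on the plus strand, and BIK (plus) and BID (minus) on the same chromosome at chr22:43506756-43525718 and chr22:18216904-18257536. Exons of 4 members overlap those of other genes. BCL2L1 shares bases with ABALON on the other strand, MCL1 with ADAMTSL4-AS1 and ADAMTSL4, BAK1 with GGNBP1, and BCL2L11 with MIR4435-2HG. The strand setting of the read counting is not stated in the sources used here, so reads of these pairs may be mixed. ADAMTSL4-AS1 reached 0.65 TPM, ADAMTSL4 7.64 TPM, GGNBP1 0.04 TPM and MIR4435-2HG 14.92 TPM at most, the last of which is close to the level of BCL2L11 itself. ABALON, which shares 1735 exonic bases with BCL2L1, was not found by symbol among the genes measured. Its level, and so the size of any mixing with BCL2L1, is unknown.

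The promoters of the members differ in the short motifs they carry. Promoter windows from RefSeq (GRCh38.p14), the 250 bases before a start site, were matched for 7 of 9 members and held 12 start sites. They were searched on both strands for the CRE half-site TGACGT, which CREB and ATF factors bind, the E-box CACGTG, and the GC box GGGCGG. Across 35093 promoter windows of that length, 7.1% held TGACGT, 6.3% held CACGTG and 42.6% held GGGCGG. MCL1 and BIK had no window and were not searched. Of the 7 members searched, PMAIP1 alone held a CRE half-site. GC boxes numbered 4 in the window of PMAIP1, 3 in BCL2L11, 2 in BAK1, 1 in BAX and 0 to 4 in those of BID. The windows of BCL2 and BCL2L1 held no GC box. BAX had 4 E-boxes, and BID had 1 in 2 of its 5 windows, which overlap and hold the same site. No window of BCL2, BCL2L1, BAK1 or BCL2L11 held TGACGT or CACGTG. The windows of PMAIP1, the member called at both time points, and of BAX, the tested member called at neither, are shown 5′ to 3′, with the CRE half-site (read on the other strand) and the E-boxes in capitals. The PMAIP1 window is chr18:59899746-59899995 and the BAX window chr19:48954625-48954874, both on the plus strand.
PMAIP1: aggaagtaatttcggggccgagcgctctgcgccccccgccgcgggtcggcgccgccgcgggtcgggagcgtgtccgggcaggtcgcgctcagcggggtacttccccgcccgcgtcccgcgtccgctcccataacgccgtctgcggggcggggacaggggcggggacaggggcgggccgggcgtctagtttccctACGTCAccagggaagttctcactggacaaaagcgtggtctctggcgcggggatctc
BAX: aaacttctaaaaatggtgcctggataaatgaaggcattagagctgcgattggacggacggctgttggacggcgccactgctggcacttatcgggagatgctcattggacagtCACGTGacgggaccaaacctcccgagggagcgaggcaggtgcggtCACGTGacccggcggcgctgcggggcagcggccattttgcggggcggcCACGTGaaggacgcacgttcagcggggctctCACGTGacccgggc
The PMAIP1 match begins at position -56, counted back from the start site. A match is a run of letters and does not show that a factor binds there.

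In si-NT cells, MCL1 and BAX were the most abundant members and BCL2 the least. TPM is scaled to gene length, so levels can be compared between genes. Over the 4 si-NT libraries MCL1 ranged from 79.47 to 96.19 TPM and BAX from 72.62 to 85.11 TPM, and these ranges overlapped. BCL2L1 followed at 43.68 to 52.69 TPM, apart from both. BID came next with 20.64 to 28.9 TPM, above BAK1 with 17.36 to 20.13 TPM. The ranges of BAK1 and BCL2L11 (14.48 to 17.97 TPM) overlapped, as did those of BCL2L11 and BIK (12.79 to 15.69 TPM). PMAIP1 was at 4.55 to 5.19 TPM and BCL2 at 0.44 to 0.67 TPM, each clear of its neighbour. In BRG1 depleted cells at 144 h the order changed. BIK, which ranked under BID, BAK1 and BCL2L11 in si-NT cells, stood above all of them without overlap. The ranges of BCL2L1 and BAX overlapped there, with means of 87.3 and 71.7 TPM, and BCL2L1 was above BAX within each of these libraries.

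**Figure D1:**
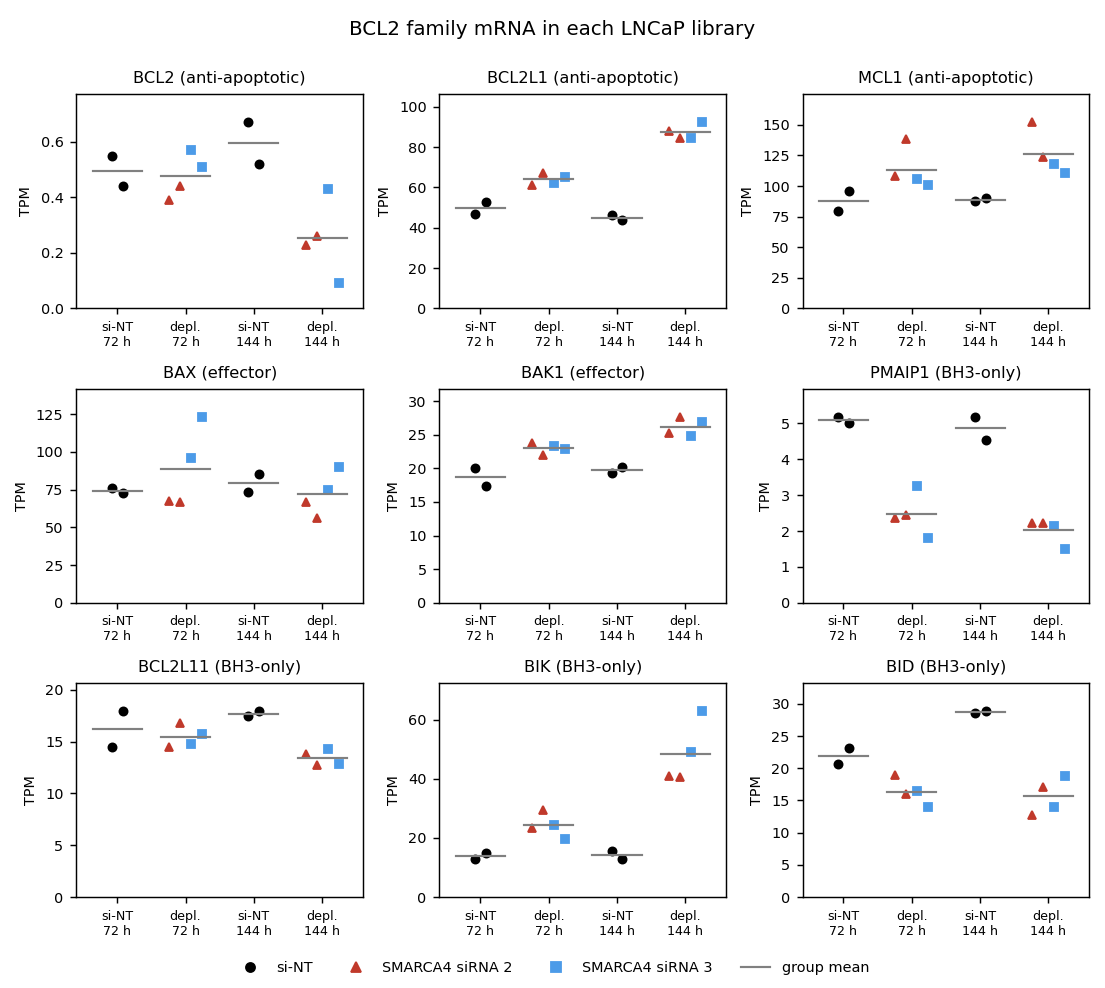
TPM of the 9 members in each of the 12 libraries, grouped on the x axis by siRNA and time point (si-NT, 2 libraries; BRG1 depleted, abbreviated depl., 4 libraries). Each point is a library, the marker gives the siRNA, the grey line is the group mean, and every y axis starts at 0. BCL2L1, MCL1, BAK1 and BIK lie higher, and PMAIP1 and BID lower, in all 8 depleted libraries than in all 4 si-NT libraries.

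At 144 h, depletion of BRG1 changed 7 of the 8 tested members. Both tested anti-apoptotic genes, BCL2L1 and MCL1, rose, as did the effector BAK1 and the BH3-only gene BIK, whereas the BH3-only genes PMAIP1, BID and BCL2L11 fell. In the limma fit, 4 members were higher and 3 lower at an adjusted p under 0.05. Of all 16337 genes tested, 13.6% were called higher and 10.8% lower. The members were chosen with earlier results of these data known. So neither these shares nor those given below test whether the family stands out. The median log2 fold change of the members was 0.12, beside 0.026 over all genes tested. BCL2L1, BIK, PMAIP1 and BID stayed called in all 12 fits that left out 1 library, and the number of members called was 4 without either si-NT library of 144 h. When TPM was instead scaled to the ERCC spike-ins, 3 members were called, of which 1 was higher and 2 lower, and the median of all genes moved to -0.31. The si-NT libraries of 144 h differed in their spike-in share (0.805% and 1.336%). The depleted libraries of that time had 1.044% to 1.966%, so the groups overlapped. The spike-ins were added to a fixed amount of total RNA, so they cannot show whether total RNA per cell changed, which was not tested.

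At 72 h, PMAIP1 was the single member called, and it fell. Of all genes tested, 1.13% were called higher and 0.557% lower at that time. An unadjusted p under 0.05 was found for 6 of the 8 tested members and for 14.3% of all genes tested. Their median log2 fold change was 0.24 beside 0.055 over all genes. The call of PMAIP1 was lost in 10 of the 12 fits that left out 1 library, in which its adjusted p ranged from 0.0291 to 0.189.

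Across both time points, 6 of the 8 tested members had all 8 depleted libraries beyond all 4 si-NT libraries, against 11.5% of all genes tested. These were BCL2L1, MCL1, BAK1, PMAIP1, BIK and BID. In an exact two-sided permutation test over both time points that rearranged library labels within each time point, each of the 6 had p = 0.00444, the smallest the design allows (adjusted p = 0.0366 over all genes), as did 12.2% of all genes tested. The test reads the same separation of the libraries, so it is no further support. BCL2L11 had p = 0.0267 in the exact permutation test (adjusted p = 0.0961) and BAX p = 0.92.

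**Figure D2:**
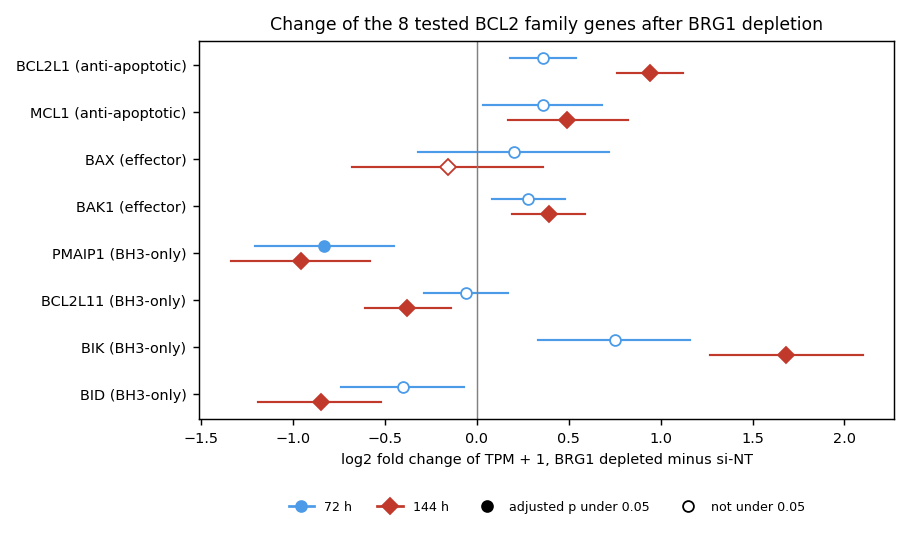
Log2 fold change of TPM + 1 (x axis) of the 8 tested members (y axis), BRG1 depleted minus si-NT, at 72 h (circles) and 144 h (diamonds). Bars are 95% confidence intervals from the limma fit of 12 libraries, and filled markers have an adjusted p under 0.05. At 144 h every member but BAX is filled, and at 72 h PMAIP1 alone is.

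Among the anti-apoptotic members, BCL2L1 showed the clearest rise. BCL2L1 encodes BCL-XL, which binds BAX, BAK1 and several BH3-only proteins. At 72 h it was at 46.98 and 52.69 TPM in si-NT cells, at 61.25 and 67.09 TPM with siRNA 2, and at 62.42 and 65.39 TPM with siRNA 3. The 144 h values were 46.18 and 43.68 TPM in si-NT cells, 87.98 and 84.53 TPM with siRNA 2, and 84.32 and 92.32 TPM with siRNA 3. All depleted libraries were above all si-NT libraries, and those of 144 h were above those of 72 h. At 144 h the si-NT mean was 44.9 ± 1.77 TPM (SD, n = 2) and the depleted mean 87.3 ± 3.75 TPM (SD, n = 4), a 1.94-fold rise. Its log2 fold change was 0.94 (SE 0.082, 95% interval 0.76 to 1.12, limma adjusted p = 4.27e-05). With ERCC scaling the value was 0.54 and the call was lost (adjusted p = 0.276 in limma), and relative to the median of all genes it was 0.86. At 72 h the value was 0.36 (interval 0.18 to 0.54), with an adjusted p of 0.0557.

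MCL1, a short-lived protein that restrains BAK1 and is bound by NOXA, had the highest mean of the members over all libraries (109 TPM, with BAX at 79.0 TPM). At 72 h its libraries were at 79.47 and 96.19 TPM in si-NT cells, at 108.17 and 138.65 TPM with siRNA 2, and at 106.10 and 100.67 TPM with siRNA 3. At 144 h they were at 87.65 and 90.06 TPM in si-NT cells, at 152.08 and 124.09 TPM with siRNA 2, and at 118.29 and 110.69 TPM with siRNA 3. No depleted library overlapped the si-NT libraries, though the depleted libraries of 72 h and 144 h overlapped each other. The mean at 144 h was 126 TPM against 88.9 TPM, a log2 fold change of 0.49 (SE 0.15, interval 0.17 to 0.82, limma adjusted p = 0.0321). That call was lost in 4 of the 12 fits that left out 1 library (adjusted p 0.0151 to 0.155 over the 12), with no filter on low values (0.0706), and with ERCC scaling, where the value was 0.092 (adjusted p = 0.875), or 0.41 relative to the median of all genes. At 72 h the log2 fold change was 0.36, with an adjusted p of 0.284.

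BCL2, the founding member of the family, was barely detected. It was at 0.55 and 0.44 TPM in si-NT cells at 72 h and at 0.39, 0.44, 0.57 and 0.51 TPM in depleted cells. By 144 h it stood at 0.67 and 0.52 TPM in si-NT cells and at 0.23, 0.26, 0.43 and 0.09 TPM in depleted cells. The groups overlapped at 72 h and did not at 144 h. BCL2 was below the filter, and in the fit without a filter its log2 fold change at 144 h was -0.35 (interval -0.58 to -0.13), with an adjusted p of 0.0554.

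Of the effectors, BAK1 was called at 144 h and BAX was not, but they were not tested against each other. BAK1, which sits in the mitochondrial membrane of healthy cells, was at 20.12 and 17.36 TPM in si-NT cells at 72 h and at 23.81, 21.92, 23.26 and 22.84 TPM in depleted cells. In the 144 h libraries it was at 19.31 and 20.13 TPM in si-NT cells and at 25.26, 27.70, 24.79 and 26.94 TPM in depleted cells. The depleted libraries were above the si-NT libraries at each time point. BAK1 rose at 144 h by 0.39 on the log2 scale (SE 0.091, interval 0.19 to 0.59, limma adjusted p = 0.0101), and the call was lost without either si-NT library of 144 h (adjusted p 0.0924 without replicate 1, 0.0727 without replicate 2). With scaling to the ERCC spike-ins the value was 0.003, and 0.32 relative to the median of all genes. At 72 h the difference was 0.28, with an adjusted p of 0.165.

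BAX, which moves from the cytosol to mitochondria when activated, lay apart by siRNA and was not called in depleted against si-NT cells. At 72 h it was at 75.86 and 72.62 TPM in si-NT cells, at 67.61 and 66.53 TPM with siRNA 2, and at 95.99 and 123.34 TPM with siRNA 3. The values at 144 h were 73.46 and 85.11 TPM in si-NT cells, 66.74 and 56.12 TPM with siRNA 2, and 74.44 and 89.69 TPM with siRNA 3. Depleted and si-NT libraries overlapped at both times, with siRNA 2 below si-NT and siRNA 3 above it at 72 h. Over both siRNAs the log2 fold change was 0.20 (interval -0.32 to 0.72, adjusted p = 0.773 in limma) at 72 h and -0.16 (interval -0.68 to 0.36, adjusted p = 0.67) at 144 h. These intervals leave room for a change of either sign.

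Of the BH3-only members, BIK rose and was the member with the largest log2 fold change at 144 h. BIK encodes a BH3-only protein of the endoplasmic reticulum. At 72 h it was at 12.82 and 15.09 TPM in si-NT cells, at 23.51 and 29.64 TPM with siRNA 2, and at 24.29 and 19.77 TPM with siRNA 3. By 144 h the si-NT libraries were at 15.69 and 12.79 TPM, those of siRNA 2 at 40.99 and 40.62 TPM, and those of siRNA 3 at 49.13 and 63.02 TPM. The si-NT libraries stayed level between the times, and every depleted library of 144 h was above every one of 72 h. The mean at 144 h rose from 14.2 to 48.4 TPM, 3.40-fold, with a log2 fold change of 1.68 (SE 0.19, interval 1.27 to 2.10, limma adjusted p = 0.00022). BIK was the one member with both an adjusted p under 0.05 and a log2 fold change above 1.5, as were 0.698% of all genes tested. At 72 h the log2 fold change was 0.75 (interval 0.33 to 1.16), with an adjusted p of 0.0841.

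PMAIP1 encodes NOXA, which binds MCL1 and is a known target of ATF4. It was at 5.19 and 5.02 TPM in si-NT cells at 72 h, at 2.36 and 2.44 TPM with siRNA 2, and at 3.26 and 1.80 TPM with siRNA 3. At 144 h it was at 5.18 and 4.55 TPM in si-NT cells, at 2.23 and 2.21 TPM with siRNA 2, and at 2.15 and 1.49 TPM with siRNA 3. All 8 depleted libraries were below the si-NT libraries, and the depleted libraries of the 2 times overlapped. The mean fell from 5.11 to 2.46 TPM at 72 h and from 4.87 to 2.02 TPM at 144 h. The log2 fold changes were -0.83 (SE 0.17, interval -1.21 to -0.45, limma adjusted p = 0.0382) and -0.96 (SE 0.17, interval -1.34 to -0.58, adjusted p = 0.00288). At these levels the pseudocount of 1 understates the fold change, and the ratios of the means were 0.483 and 0.415.

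BID links the death receptors to mitochondria once it is cut by caspase 8. At 72 h it was at 20.64 and 23.13 TPM in si-NT cells and at 18.99, 16.06, 16.42 and 14.03 TPM in depleted cells. At 144 h it was at 28.61 and 28.90 TPM in si-NT cells and at 12.80, 17.12, 13.91 and 18.74 TPM in depleted cells. The depleted libraries of both times overlapped, while the si-NT libraries of 144 h were above those of 72 h. The log2 fold change at 144 h was -0.85 (SE 0.15, interval -1.19 to -0.52, limma adjusted p = 0.00269). In si-NT cells alone, 144 h minus 72 h gave 0.38 (interval -0.004 to 0.77), with an adjusted p of 0.974, and in depleted cells the same comparison gave -0.07. At 72 h the difference between depleted and si-NT cells was -0.40, with an adjusted p of 0.239.

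BCL2L11 encodes BIM, a BH3-only protein that binds all anti-apoptotic members. At 72 h it was at 14.48 and 17.97 TPM in si-NT cells and at 14.53, 16.83, 14.74 and 15.73 TPM in depleted cells, and the groups overlapped. At 144 h it was at 17.51 and 17.92 TPM in si-NT cells and at 13.77, 12.75, 14.27 and 12.83 TPM in depleted cells, and they did not. BCL2L11 fell at 144 h by 0.38 on the log2 scale (SE 0.11, interval -0.61 to -0.14, limma adjusted p = 0.0246). Leaving out 1 library lost this call in 3 of 12 fits (adjusted p 0.017 to 0.167), and ERCC scaling gave -0.76 without a call (adjusted p = 0.14). At 72 h the value was -0.06, with an adjusted p of 0.859.

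The sums over the classes show how the balance of the mRNAs moved. The anti-apoptotic members together were at 134.3 to 134.5 TPM in si-NT cells at 144 h and at 203.0 to 240.3 TPM in depleted cells. BAX and BAK1 together were at 92.77 to 105.2 TPM and at 83.82 to 116.6 TPM, and overlapped. The BH3-only members together were at 64.16 to 66.99 TPM and at 69.79 to 96.08 TPM, although 3 of the 4 had fallen. BIK made up 19.9% to 23.4% of the BH3-only sum in si-NT cells and 55.9% to 65.6% in depleted cells at that time, and 38.5% to 45.6% in depleted cells at 72 h. TPM of BCL2L1 over BAX was 0.513 to 0.629 in si-NT cells and 1.03 to 1.51 in depleted cells at 144 h, while at 72 h the depleted range of 0.53 to 1.01 included the si-NT values. MCL1 over PMAIP1 was 16.9 to 19.8 in si-NT cells and 55.0 to 74.3 in depleted cells at 144 h. BCL2L1 over BIK moved the other way, without overlap. It was 2.94 to 3.42 in si-NT cells and 1.46 to 2.15 in depleted cells at 144 h. At 72 h it was 3.49 to 3.66 in si-NT cells and 2.26 to 3.31 in depleted cells. These ratios compare mRNAs, not proteins, and a ratio within a library does not depend on how the library is scaled.

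**Figure D3:**
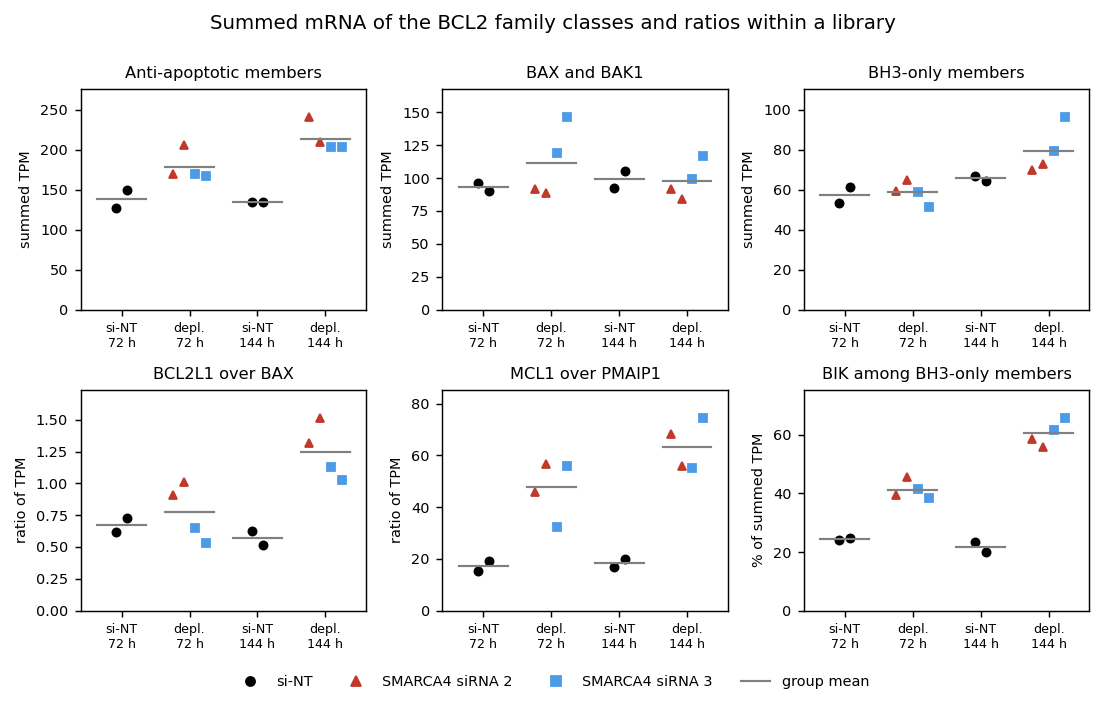
Summed TPM of the members in each of the 3 classes (upper row), per library, grouped on the x axis by siRNA and time point. The lower row has 2 ratios of TPM and the percent of the BH3-only sum taken by BIK. Points are libraries, grey lines group means, and y axes start at 0. At 144 h the anti-apoptotic sum, the ratios BCL2L1 over BAX and MCL1 over PMAIP1, and the share of BIK are higher in all 4 depleted than in both si-NT libraries, and the sum of BAX and BAK1 overlaps.

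Between 72 h and 144 h, BCL2L1 and BIK went on rising in depleted cells. In the comparison of the depleted libraries of the 2 times, BCL2L1 rose by 0.44 (interval 0.30 to 0.59, limma adjusted p = 0.00724) and BIK by 0.96 (interval 0.62 to 1.30, adjusted p = 0.00911), and the other 6 tested members were not called. Of all genes tested, 2.58% were called higher and 1.68% lower in this comparison. With ERCC scaling 0 members were called in it. In si-NT cells 0 members and 0.0% of all genes were called between the times, and 0 members had an unadjusted p under 0.05. The difference between the changes at 144 h and 72 h was 0.59 for BCL2L1 (interval 0.33 to 0.84, limma adjusted p = 0.153) and 0.93 for BIK (interval 0.34 to 1.52, adjusted p = 0.277). By that test of the difference itself 0 members were called, 2 had an unadjusted p under 0.05, and 0.0184% of all genes were called.

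Each siRNA was also set against si-NT. At 144 h, siRNA 2 and siRNA 3 gave log2 differences of 0.93 and 0.96 for BCL2L1, 0.62 and 0.36 for MCL1, and 0.41 and 0.37 for BAK1. They gave 1.46 and 1.90 for BIK, -0.86 and -1.06 for PMAIP1, -0.91 and -0.79 for BID, and -0.39 and -0.36 for BCL2L11. For BAX they gave -0.36 and 0.047. In these limma comparisons at 144 h, BCL2L1, BAK1, BIK, PMAIP1 and BID were called under both siRNAs. MCL1 was called under siRNA 2 (limma adjusted p = 0.0164) but not siRNA 3 (0.109), and BCL2L11 under neither (0.0587 and 0.0765). At 72 h, PMAIP1 was called under neither siRNA (limma adjusted p = 0.0794 and 0.125). BIK was called at 72 h under siRNA 2 (0.0455) and not siRNA 3 (0.158). Both siRNAs were compared with the same si-NT libraries, so like signs are not independent. In the direct comparison of siRNA 3 with siRNA 2, limma called 0 members at either time (1 member at 72 h and 2 at 144 h had an unadjusted p under 0.05), and 0.141% and 0.331% of all genes. The widest difference was that of BAX at 72 h, 0.69 on the log2 scale (interval 0.36 to 1.02, limma adjusted p = 0.183), with 0.41 at 144 h (interval 0.081 to 0.74, adjusted p = 0.288). For BIK at 144 h it was 0.44 (interval 0.051 to 0.83, adjusted p = 0.327). For BCL2L1 the interval at 144 h was -0.18 to 0.25.

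**Figure D4:**
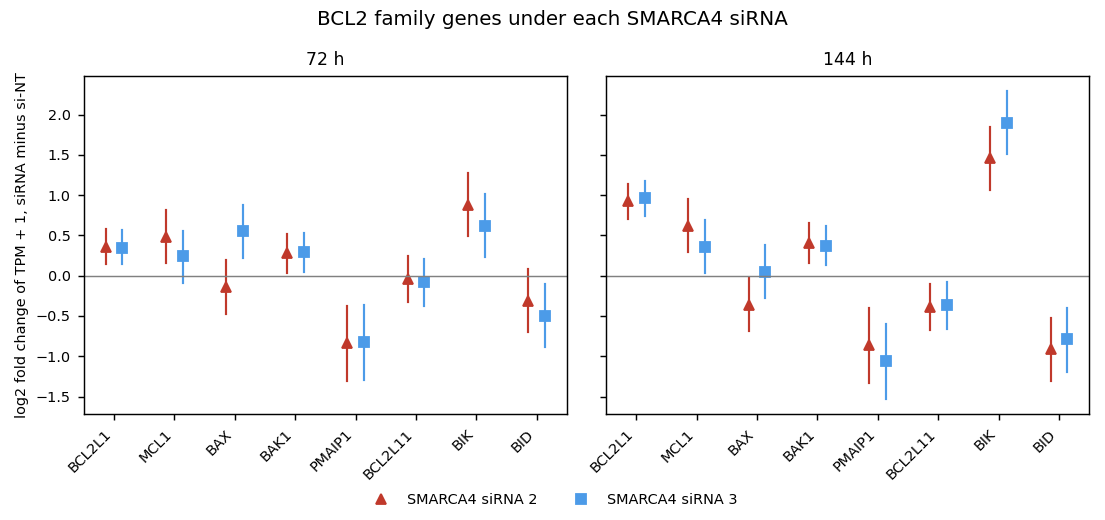
Log2 fold change of TPM + 1 (y axis) of the 8 tested members (x axis) for siRNA 2 (triangles) and siRNA 3 (squares), each minus si-NT, at 72 h (left) and 144 h (right). Bars are 95% confidence intervals from a limma fit of 6 groups of 2 libraries. At 144 h the points for BIK are the highest and those for PMAIP1 and BID the lowest, and the widest gap between the siRNAs at 72 h is that of BAX.

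Other genes of the cell death pathway moved in part. A list of 62 was examined, of which 55 passed the filter. At 144 h, 8 of the 55 were higher and 9 lower, beside 13.6% and 10.8% of all genes tested, and their median log2 fold change was -0.12. The 17 calls fell to 7 without si-NT 144 h replicate 1 and to 4 without replicate 2. At 72 h limma called 0 of them, with 10 at an unadjusted p under 0.05. Scaled to the ERCC spike-ins, 3 of the 17 genes called at 144 h were still called, BMF and CYCS among them, and RELA turned from 0.31 to -0.087.

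Beyond the 9 members, 16 genes of the BCL2 family or listed beside it, such as the BNIP genes, were examined, 11 of them tested. BMF and BAD, both BH3-only, were higher at 144 h. BMF, whose protein is held at the cytoskeleton until cells detach, was at 3.26 and 3.80 TPM in si-NT cells and between 13.79 and 25.13 TPM in the 4 depleted libraries, without overlap. Its log2 fold change was 2.22 (SE 0.24, interval 1.70 to 2.74, limma adjusted p = 0.000162), above that of BIK. BAD, a BH3-only protein controlled by phosphorylation, rose from 52.1 to 90.8 TPM (log2 fold change 0.78, limma adjusted p = 0.00299). The third tested gene of that class, BBC3 (PUMA), is named here outside the rule for named genes, and it had means of 5.55 and 3.87 TPM and was not called. BNIP2, listed with BNIP3 and the BCL2-like genes, was the only gene of the 11 called lower, with a log2 fold change of -0.40 (limma adjusted p = 0.0338).

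Downstream of the mitochondria, 3 of 10 genes of the apoptosome and of mitochondrial release were lower at 144 h and 0 were higher. CYCS, which encodes cytochrome c, fell from 585 to 345 TPM (log2 fold change -0.77, limma adjusted p = 0.00942). MTCH2, a receptor for cleaved BID at mitochondria, fell by 0.34 on the log2 scale (limma adjusted p = 0.0406), a call lost with median-of-ratios size factors (0.0831). VDAC1, a channel of the outer membrane, fell by 0.33 (limma adjusted p = 0.0104). Of 6 caspases tested, 2 were higher and 0 lower. CASP9, the initiator activated on the apoptosome, rose from 7.91 to 12.7 TPM (log2 fold change 0.62, limma adjusted p = 0.00507) and CASP6, an executioner, from 12.2 to 19.8 TPM (0.66, adjusted p = 0.00994). Of 6 inhibitors of apoptosis, NAIP rose by 0.70 on the log2 scale (limma adjusted p = 0.00953) and BIRC5, which also serves in cell division, fell by 0.81 (adjusted p = 0.0224).

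Among 10 death receptors and adaptors, TNFRSF10B, the TRAIL receptor DR5, fell from 82.2 to 58.8 TPM at 144 h (log2 fold change -0.48, limma adjusted p = 0.0122), and the adaptor TRADD rose from 5.96 to 9.97 TPM (0.65, adjusted p = 0.0144). Of 12 regulators of the transcription of BCL2 family genes, 2 were higher and 3 lower. ATF4, the factor of the amino acid and endoplasmic reticulum stress response, fell from 347 to 222 TPM (log2 fold change -0.64, limma adjusted p = 0.00947). FOXO1, a factor that can drive BCL2L11, rose from 1.67 to 2.86 TPM (0.53, adjusted p = 0.0105 in limma). Among the other called regulators, NFKB1 (-0.37) and RELA (0.31) are named outside the rule. DDIT3, encoding the stress factor CHOP, was also looked at after its values were seen: it was at 292.34 TPM in 1 si-NT library of 72 h and between 36.31 and 84.62 TPM in the other 11, and it was called at neither time.

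**Figure D5:**
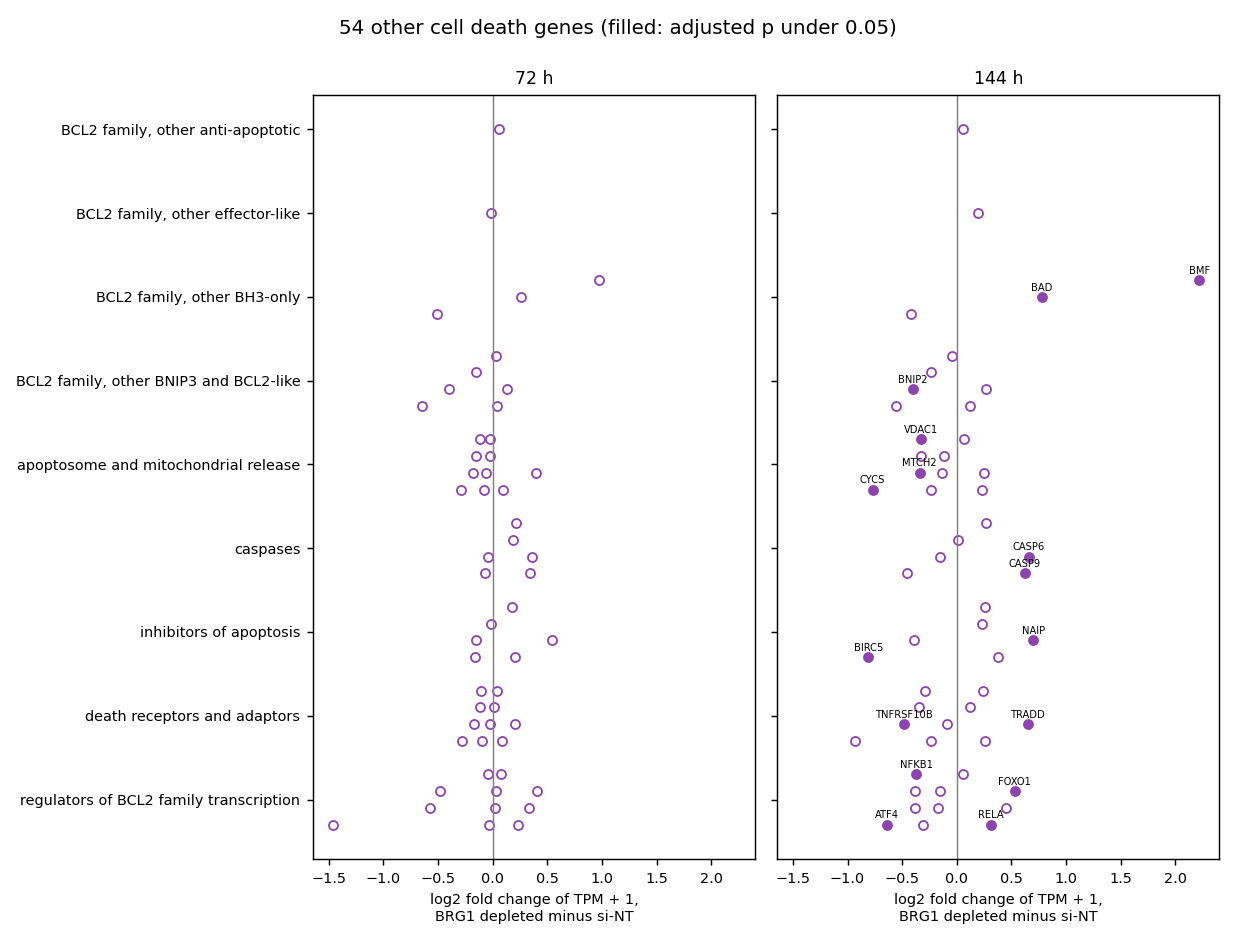
Log2 fold change of TPM + 1 (x axis), BRG1 depleted minus si-NT, of the other cell death genes tested and reported here, in 9 lists (y axis) at 72 h (left) and 144 h (right). Each circle is a gene, filled and named where the limma adjusted p is under 0.05, and vertical offsets within a list only separate the circles. At 72 h none is filled, and at 144 h filled circles lie on both sides of 0, with BMF farthest right.

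For each member called at 144 h, the 3 genes most like it were sought by Pearson's r of log2(TPM + 1) over the 12 libraries, among 10114 or 10115 genes with a symbol and a mean of at least 5 TPM. The libraries share the same 4 groups, so r reflects the group pattern, and it is given as a description. TMEM63B (0.989), PFKFB2 (0.988) and TESK2 (0.983) were most like BCL2L1. MCL1 was closest to TPP1 (0.983), FAM222B (0.978) and KIF5B (0.977), and BAK1 to PRR13 (0.987), STX10 (0.967) and EPN3 (0.960). BIK was closest to SERTAD1 (0.970), ZDHHC14 (0.970) and SULT2B1 (0.968). For the members that fell, PMAIP1 was most like SLC43A1 (0.954), BCL6 (0.950) and TMEFF2 (0.950), BCL2L11 like MMP16 (0.925), TRUB2 (0.914) and WLS (0.913), and BID like GCG (0.894), SMARCA4 (0.878) and CBX2 (0.874). The depleted gene SMARCA4 was among the 3 nearest genes of BID alone, but these had lower r than the nearest genes of the other members. This does not show that BID was more like SMARCA4 than the other members were.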

How the data were processed

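Stranded mRNA libraries of 12 samples were sequenced with paired ends. The authors mapped reads to GRCh37 (hg19) using STAR (2.4.0j per the submitters' processing notes), counted them with featureCounts and deposited TPM on GENCODE genes, whose sum per library is fixed and which keep no depth. The methods name ERCC normalisation of counts, which TPM does not keep. All columns were matched to libraries or groups.

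From the deposited TPM, the 16337 genes that reached 1 TPM in 2 or more libraries were tested on log2(TPM + 1) with limma 3.58.1 in R 4.3.3 (eBayes with trend, prior df 3.53), in 4 groups, or 6 for the siRNAs. Adjusted p-values are Benjamini-Hochberg over all genes tested, with calls under 0.05. The study's edgeR could not be used on TPM. The fit was tested on simulated data. Symbols and coordinates are from GENCODE release 44 lifted to GRCh37. Tables were made with Python 3.11.15.

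Members and lists were chosen with earlier results of these data known. The text names all members, per other list the called genes at 72 h and the 3 with the largest change among those called at 144 h, 3 like genes per called member, and SMARCA4. A gene that this rule names is not reported here.

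Alternatives were another pseudocount, scaling, filter, fit, call limit or control set, a replicate block, and each library left out. Taking ERCC-scaled values relative to the all-gene median, and the further alternatives for comparisons between time points, were chosen after seeing the data.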

Additional observations from a re-analysis of the deposited data

Results flagged for a closer look

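BAX at 72 h lay on opposite sides of si-NT with the siRNAs. Both siRNA 2 libraries were below both si-NT libraries and both siRNA 3 libraries above them, but against si-NT neither was called: siRNA 2 gave -0.14 (95% interval -0.47 to 0.19, limma adjusted p = 0.673) and siRNA 3 gave 0.55 (interval 0.22 to 0.88, adjusted p = 0.144). The difference, siRNA 3 minus siRNA 2, was 0.69 on the log2 scale (95% interval 0.36 to 1.02), with a limma adjusted p of 0.183, so it did not pass the threshold over all genes.

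PMAIP1 at 144 h had 1 depleted library apart from the other 3. It was at 1.49 TPM, whereas the others were between 2.15 and 2.23 TPM, and its gap to the nearest took 0.892 of the group's range, above Dixon's 95% limit for 4 samples. Over the members, 18 such tests were made, of which chance marks about 1 in 20. The log2 fold change of PMAIP1 at 144 h was between -1.04 and -0.87 over the 12 fits that left out 1 library.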

How the results depend on the processing

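At 144 h, 7 members were called. ERCC scaling gave 3, a log2 fold change limit of 1.5 gave 1, an adjusted p under 0.01 gave 4, and leaving out 1 library gave 4 to 7, with 4 without either si-NT library of 144 h. Of the other cell death genes, 17 were called, and 4, 1 and 8 under the same 3 settings, with 4 to 20 when 1 library was left out (7 without si-NT 144 h replicate 1, 4 without replicate 2). At 72 h, 1 member was called, and 0 with a pseudocount of 0.1, ERCC scaling, a mean of at least 5 TPM, only the 6 libraries of the time point, the limit of 1.5 or an adjusted p under 0.01. With no filter the count was 1 but the gene differed, PMAIP1 being lost (limma adjusted p = 0.0812) and BCL2L1 gained (0.042). It was 4 with si-NT of both times combined, and 0 to 2 with 1 library left out. The 0 other genes at 72 h became 1 with median-of-ratios size factors, 5 with si-NT combined, and 0 to 1 with 1 library left out. The 2 members called between the times in depleted cells became 0 with ERCC scaling. BCL2L11 at 72 h was 0.086 without si-NT 72 h replicate 2 and negative otherwise, from -0.21 in the other fits that left out 1 library. Under the alternatives, 316 values of single members kept direction and, where tested, side of the threshold. The call was lost in 28 and gained in 5, and 1 value turned sign. The ERCC-scaled values relative to the median of all genes had no test and were judged by direction alone. The causes were not tested.

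With ERCC scaling the median of all genes moved from 0.055 to -0.12 at 72 h and from 0.026 to -0.31 at 144 h, and the genes called higher and lower at 144 h were 139 and 593 in place of 2222 and 1761. At 72 h they were 7 and 24 in place of 184 and 91, and 141 and 141 with median-of-ratios size factors. With ERCC scaling, BCL2L1 was at 0.54 (adjusted p = 0.276 in limma), MCL1 at 0.092 (0.875), BAK1 at 0.003 (0.997) and BCL2L11 at -0.76 (0.14) at 144 h, while BIK (1.29), PMAIP1 (-1.26) and BID (-1.24) stayed called. Relative to the median of all genes these 7 were 0.86, 0.41, 0.32, -0.44, 1.61, -0.95 and -0.93.

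Same-numbered replicates did not deviate together, with correlations from -0.229 to 0.3 over 15 pairs of conditions and 2 over 0.1, so the numbers were not taken to pair the samples. With a replicate block, 1 member was called at 72 h and 7 at 144 h, 0 and 17 of the other genes were called, and no member's call changed. TPM keeps no depth, so what depth limits is unknown.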
